A study of Homo sapiens with 6 samples.

Results

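The locus described here is a stretch of the long arm of chromosome 22 that runs from C1QTNF6 to GGA1, chr22:37180166-37633564 on GRCh38, or 453 kb. Its 10 members, in chromosome order, are C1QTNF6, SSTR3, RAC2, CYTH4, ELFN2, MFNG, CARD10, CDC42EP1, LGALS2 and GGA1, of 60676 genes in the count table. They were chosen by their symbols, and the stretch was selected on measured values of the same contrast, as one where neighboring genes rise together. Their differences between the groups are therefore given as a description with no test. In the libraries, 4 of the 10 genes (C1QTNF6, RAC2, ELFN2 and CARD10) had non-overlapping groups, all higher in shEHD1+Dox. CYTH4 and CDC42EP1 were higher on average with overlapping groups, GGA1 differed by 0.09 on the log2 scale, and SSTR3, MFNG and LGALS2 were at or near 0 counts. Every shEHD1+Dox library above every control was seen for 19.9% of the 16785 genes tested. The stretch was chosen on this contrast, so nothing is read from the count of 4. Its name as a locus whose genes rise together describes the selection, and not all 10 genes were seen to rise.

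RNA-seq was carried out on TC71, an established line of Ewing sarcoma cells with a lentiviral shRNA vector that Dox induces. The control lines expressed a non-targeting shRNA (shNTC+Dox, 3 libraries) and the knockdown lines an shRNA against EHD1 (shEHD1+Dox, 3 libraries), and both groups received 0.5 µg/ml Dox for 3 days. Cells were polyclonal, puromycin-selected populations, the sources used here do not say which EHD1 shRNA these libraries carry, and uninduced cells were not analysed here. Nothing in the labels says that replicates were separate cultures, so p-values measure only the spread between these samples, which may be technical. Library totals ran from 22711235 to 30582187 counts, and 16785 genes passed the filter of at least 10 counts in at least 3 libraries. Values are counts or CPM, the counts scaled to the library total after TMM normalization, as mean ± SD with n = 3, and log2 fold changes are shEHD1+Dox over shNTC+Dox from the quasi-likelihood fit of edgeR. EHD1, the endocytic recycling ATPase targeted by the shRNA, had 713, 775 and 589 counts in shNTC+Dox against 215, 175 and 290 in shEHD1+Dox. The log2 fold change of EHD1 was -1.76 (SE 0.12, adjusted p = 1.35e-04 with edgeR), in the direction of the labels. Of the libraries, shNTC+Dox replicate 3 stood apart from its own group on the first and second principal components. On the first, it lay at -55.2, against -23.9 and -21.3 for shNTC+Dox replicates 1 and 2. The shEHD1+Dox libraries lay from 31.8 to 34.8 there, so this control was the farthest from them. On the second, it lay at -38.7, against 32.8 and 29.1 for shNTC+Dox replicates 1 and 2, with shEHD1+Dox replicate 2 at -24.2. Values without shNTC+Dox replicate 3 are given where it decides them.

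Small GTPases such as RAC and ARF proteins switch between a GDP-bound and a GTP-bound state, driven on by exchange factors and off by GTPase-activating proteins, and act on the actin cytoskeleton and on membrane traffic. Several genes of the locus belong to these circuits: RAC2 is a RAC GTPase best known from blood cells, CDC42EP1 an effector of CDC42, CYTH4 an exchange factor for ARF proteins, and GGA1 an adaptor recruited by ARF to sort cargo at the trans-Golgi network. The others code for a secreted C1q/TNF-related protein (C1QTNF6), a somatostatin receptor (SSTR3), a leucine-rich-repeat membrane protein (ELFN2), a sugar transferase acting on Notch (MFNG), a scaffold of BCL10 and MALT1 upstream of NF-kB (CARD10) and a galectin (LGALS2). Ewing sarcoma is driven by a fusion of EWSR1 with an ETS factor, usually FLI1, which binds repeats of GGAA.

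RefSeq promoters of GRCh38.p14, from 250 bases before to 50 after the gene start, were given for 7 of the 10 genes, with 9 promoters in all. RAC2, CYTH4 and MFNG have no entry. The promoters of C1QTNF6, ELFN2 and CARD10 are shown because these genes had non-overlapping groups. For GGA1, whose levels hardly differed, the first listed promoter is shown. Capitals mark GGGCGG, the GC box bound by SP1 in many promoters, on either strand, where the opposite strand reads CCGCCC.
C1QTNF6 promoter (chr22:37199374-37199673, minus strand): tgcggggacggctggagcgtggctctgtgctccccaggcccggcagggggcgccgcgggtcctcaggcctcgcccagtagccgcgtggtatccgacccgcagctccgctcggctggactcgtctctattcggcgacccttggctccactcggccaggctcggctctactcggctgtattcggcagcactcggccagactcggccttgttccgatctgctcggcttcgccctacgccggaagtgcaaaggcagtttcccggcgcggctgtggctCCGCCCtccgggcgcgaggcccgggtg
ELFN2 promoter (chr22:37427430-37427729, minus strand): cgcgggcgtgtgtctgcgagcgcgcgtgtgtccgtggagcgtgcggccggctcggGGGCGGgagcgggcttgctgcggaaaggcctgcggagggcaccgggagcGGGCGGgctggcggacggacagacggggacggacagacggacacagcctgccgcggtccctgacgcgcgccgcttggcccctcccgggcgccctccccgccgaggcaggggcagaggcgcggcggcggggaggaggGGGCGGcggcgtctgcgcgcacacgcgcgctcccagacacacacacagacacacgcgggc
CARD10 promoter (chr22:37519366-37519665, minus strand): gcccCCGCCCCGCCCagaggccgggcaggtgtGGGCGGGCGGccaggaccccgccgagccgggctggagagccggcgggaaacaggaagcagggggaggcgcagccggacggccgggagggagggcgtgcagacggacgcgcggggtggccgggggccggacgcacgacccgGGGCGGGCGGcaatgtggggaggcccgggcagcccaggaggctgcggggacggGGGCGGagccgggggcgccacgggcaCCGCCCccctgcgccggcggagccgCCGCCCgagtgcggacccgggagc
GGA1 promoter (chr22:37608584-37608883, plus strand): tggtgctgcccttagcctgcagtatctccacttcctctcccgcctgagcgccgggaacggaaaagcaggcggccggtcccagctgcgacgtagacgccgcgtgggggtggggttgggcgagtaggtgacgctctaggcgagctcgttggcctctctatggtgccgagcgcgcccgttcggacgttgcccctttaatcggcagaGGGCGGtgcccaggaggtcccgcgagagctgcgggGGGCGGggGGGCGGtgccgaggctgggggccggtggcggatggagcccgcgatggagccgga

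The GC content of these promoters was 71.3% for C1QTNF6, 78.7% for ELFN2, 83.3% for CARD10 and 71.0% for GGA1, beside a median of 58.7% over all 35116 promoters of the table. They held 36, 48, 42 and 34 CpG dinucleotides in that order, beside a median of 14. GGA1 has a second promoter entry, overlapping the one shown, with 79.7% GC and 39 CpG dinucleotides. Both GGA1 entries are among the 9 promoters of the locus. The GC box GGGCGG was present in 8 of the 9 promoters of the locus and in 45.0% of all promoters. The promoter of LGALS2, a gene without a count, was the one that lacked it, whereas both promoters of SSTR3 held it. CCAAT was found in 1 of the 9, at SSTR3, and in 34.6% of all. The ETS-type tandem GGAAGGAA was in none of the 9 and in 3.7% of all promoters. The E-box CACGTG was likewise absent from the 9, with a share of 7.3% of all, and so was the TATA-type word TATAAA, with 11.5%. The AP-1 word TGACTCA (4.9% of all) and the E2F word TTTGGCGC (0.7% of all) had no match in the 9 either. All words were searched on both strands, and a match or its absence describes these letters in this window.

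Runs of at least 4 tandem GGAA were searched across the whole interval, since the fusion protein binds such repeats. Single GGAA words were not searched. The interval held 1 run, a density of 2.21 per Mb beside 5.69 per Mb on chromosome 22, which held 223. It lies within an intron of RAC2, 22.4 kb from the start of that gene, and its 4 units are in capitals.
GGAA run in RAC2 (chr22:37237172-37237217, plus strand, GRCh38): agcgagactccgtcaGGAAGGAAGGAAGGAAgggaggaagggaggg

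C1QTNF6, which codes for a secreted C1q/TNF-related protein (ENSG00000133466, chr22:37180166-37199385), had 63, 99 and 84 counts in shNTC+Dox against 282, 205 and 374 in shEHD1+Dox. The lowest shEHD1+Dox library stood well above the highest control. Its level went from 3.24 ± 0.74 CPM to 10.1 ± 1.86 CPM, and the log2 fold change of 1.64 (SE 0.22) was the largest of the locus. An antisense transcript shares 399 bases with its exons and had at most 1 count per library. SSTR3, the other signaling gene at this end and a receptor for the hormone somatostatin, had 2 counts in shNTC+Dox replicate 2 and 0 in the other 5 libraries, so no fold is given.

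RAC2, the GTPase that in neutrophils helps assemble the NADPH oxidase (ENSG00000128340, chr22:37225270-37259594), had 167, 132 and 77 counts in shNTC+Dox against 460, 350 and 431 in shEHD1+Dox. Again the groups did not overlap, and the spread was wider among the controls. The level went from 4.85 ± 1.45 CPM to 14.8 ± 1.19 CPM, and its log2 fold change was 1.60 (SE 0.21). CDC42EP1, an effector that links CDC42 to septins and actin (ENSG00000128283, chr22:37560480-37569405), had 34, 27 and 19 counts in shNTC+Dox against 65, 41 and 37 in shEHD1+Dox. In CPM the lowest shEHD1+Dox library (1.19) fell below the highest control (1.29), so the groups overlapped, with means of 1.04 ± 0.23 and 1.72 ± 0.54 CPM. Its log2 fold change was 0.72 (SE 0.32).

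CYTH4, an ARF exchange factor of the cytohesin family (ENSG00000100055, chr22:37282027-37315341), had 3, 19 and 0 counts in shNTC+Dox against 14, 21 and 21 in shEHD1+Dox. These counts overlapped, and a single control library reached 10 counts, so the gene passed the filter through the shEHD1+Dox group. The log2 fold change of 1.26 (SE 0.85) became 3.37 without shNTC+Dox replicate 2, the library with 19 counts. GGA1, the trans-Golgi adaptor at the telomeric end (ENSG00000100083, chr22:37608725-37633564), had 1813, 1795 and 1477 counts in shNTC+Dox against 2089, 1581 and 2290 in shEHD1+Dox. Its groups overlapped at 66.5 ± 2.07 and 70.6 ± 5.23 CPM, and its log2 fold change of 0.09 (SE 0.08) was the smallest of the 7 genes that could be fitted.

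ELFN2, a membrane protein known from neurons and an inhibitor of protein phosphatase 1 (ENSG00000166897, chr22:37367960-37427479), had 64, 58 and 56 counts in shNTC+Dox against 162, 164 and 244 in shEHD1+Dox. The controls lay close together, and every shEHD1+Dox library was far above them. Levels were 2.34 ± 0.22 and 6.75 ± 1.10 CPM, a log2 fold change of 1.53 (SE 0.19). Overlapping transcripts share 148 and 910 bases with its exons, and neither had more than 3 counts in a library.

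CARD10, the CARMA3 scaffold that relays receptor signals to BCL10 and MALT1 (ENSG00000100065, chr22:37490362-37519542), had 58, 42 and 20 counts in shNTC+Dox against 104, 97 and 114 in shEHD1+Dox. The groups were apart, with a tight shEHD1+Dox group and a wide control group. Levels of 1.54 ± 0.65 and 3.76 ± 0.17 CPM gave a log2 fold change of 1.28 (SE 0.30), which ranged from 1.02 to 1.62 when each library was left out in turn. MFNG, the Fringe enzyme that extends O-fucose on Notch, and LGALS2, a galactose-binding lectin, had 0 counts in all 6 libraries. At these depths 3 counts, the upper limit that a count of 0 allows, correspond to between 0.0968 and 0.134 CPM, which covers counting error only.

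**Figure D1:**
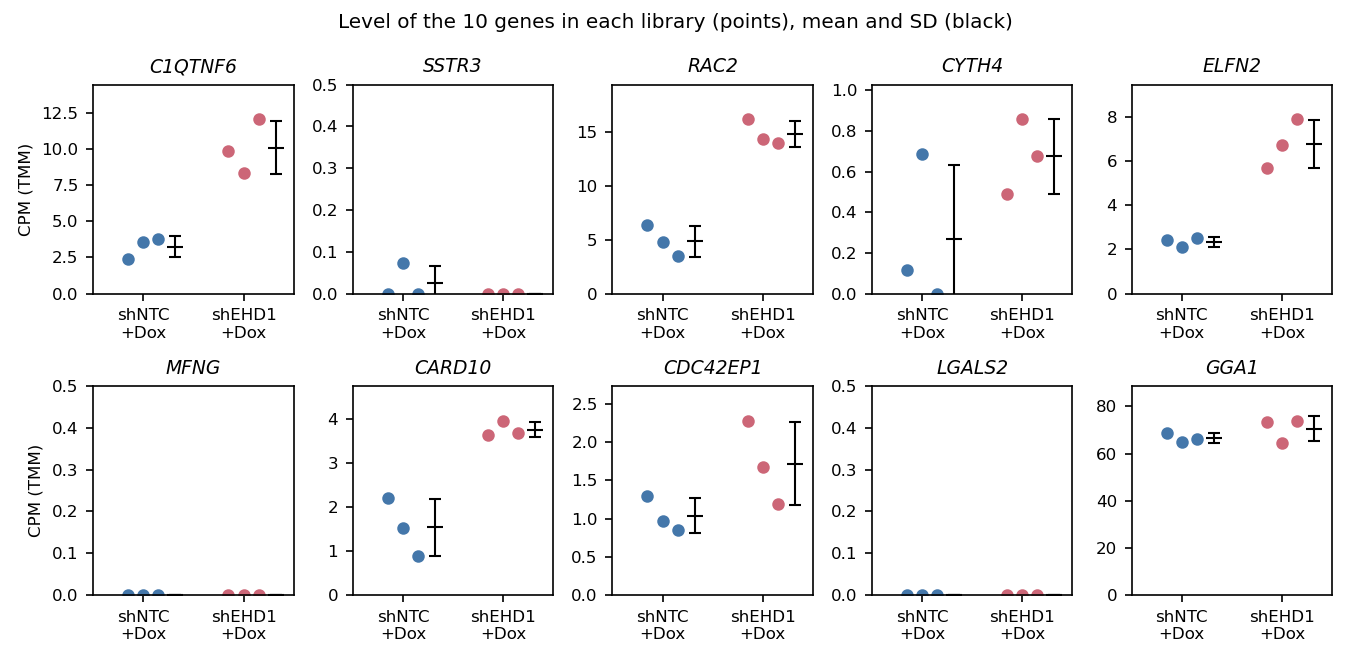
Level of the 10 genes in CPM (y axis, linear, a scale of its own for each gene) in the 3 shNTC+Dox and 3 shEHD1+Dox libraries (points), with mean and SD in black. C1QTNF6, RAC2, ELFN2 and CARD10 have every shEHD1+Dox point above every control, GGA1 and CDC42EP1 overlap, and MFNG and LGALS2 lie at 0.

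In all, 7 of the 10 genes passed the filter on low counts, and CYTH4 would not have done so on its control libraries. At an adjusted p under 0.05 and at least a 2-fold rise, 1.08% of all tested genes were called higher (181 of 16785), and the same rule held for 4 of the 7 fitted genes of the locus. CARD10 no longer met it without shNTC+Dox replicate 2 or any one shEHD1+Dox library, and CYTH4 met it without shNTC+Dox replicate 2. Every shEHD1+Dox library above every control was seen for 19.9% of all tested genes and for the same 4 genes. All 7 log2 fold changes were positive, with a median of 1.28 beside 0.00 over all tested genes. CYTH4, among them, passed the filter through the shEHD1+Dox group. The locus was chosen on this contrast, so these counts, calls, signs and medians are no test of it. Nothing is read from them. The median was 1.02 without shNTC+Dox replicate 3, where the controls for CARD10 and RAC2 are lowest.

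Summed over the 10 genes, the locus had 83.6, 78.4 and 77.5 CPM in shNTC+Dox against 111, 100 and 113 CPM in shEHD1+Dox. These sums did not overlap and averaged 79.8 ± 3.27 and 108 ± 6.97 CPM, a difference of 0.44 on the log2 scale. GGA1 supplied 83.4% ± 1.61 of the sum in shNTC+Dox and 65.1% ± 0.75 in shEHD1+Dox. Without GGA1, a split added after the data were seen, the sum was 13.3 ± 1.69 CPM in shNTC+Dox against 37.8 ± 1.80 CPM in shEHD1+Dox, or 2.84-fold. The counts of the locus thus came mostly from its least changed fitted gene, in both groups. Counts also grow with exon length, so these percentages are not shares of RNA molecules. In bulk RNA, more cells expressing a gene and more RNA per cell cannot be told apart.

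Per length, as RPKM, CPM divided by the exon length in kb, GGA1 had the highest level in shNTC+Dox at 7.30 ± 0.23, followed by RAC2 at 1.85 ± 0.55. Neither range touched that of another gene. C1QTNF6 (0.45 ± 0.10), CDC42EP1 (0.41 ± 0.09), CARD10 (0.27 ± 0.11) and ELFN2 (0.27 ± 0.02) came next, and each overlapped its neighbor in this order. CYTH4 was lowest at 0.04 ± 0.06. In shEHD1+Dox the order began with GGA1 at 7.74 ± 0.57, RAC2 at 5.65 ± 0.46 and C1QTNF6 at 1.42 ± 0.26, 3 genes whose ranges were apart. ELFN2 (0.77 ± 0.12), CDC42EP1 (0.68 ± 0.21) and CARD10 (0.65 ± 0.03) overlapped, and CYTH4 stood last at 0.11 ± 0.03. RAC2 was nearer to GGA1 in shEHD1+Dox than in the controls, and the other genes of the locus stayed low in both groups.

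Along the chromosome the log2 fold changes ran 1.64, 1.60, 1.26, 1.53, 1.28, 0.72 and 0.09 from C1QTNF6 to GGA1, so the values were lowest at the telomeric end. Besides the members, 6 other genes of the table lie in the interval, of which 4 had no count, none was tested and the highest count was 3. The interval therefore held no fitted gene other than the members. IL2RB, a subunit of the interleukin-2 receptor and the nearest fitted gene on the centromeric side, had 39, 28 and 31 counts in shNTC+Dox against 52, 53 and 58 in shEHD1+Dox, with a log2 fold change of 0.60 (SE 0.25). SH3BP1, a GTPase-activating protein for RAC and the nearest on the telomeric side, had 0.06 (SE 0.14). Both bound the chosen stretch and are given with no test.

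Within 500 kb of either end, 24 genes outside the locus were tested, of which 2 rose and 2 fell at an adjusted p under 0.05, or 8.33% in each direction, beside 8.59% of all tested genes that were higher and 8.75% that were lower. On the centromeric side all 5 tested genes had positive log2 fold changes, with a median of 0.34, and on the telomeric side 13 of 19 were negative, with a median of -0.07. MPST, a mitochondrial and cytosolic sulfurtransferase, rose by 0.50 on the log2 scale (SE 0.12, adjusted p = 0.0226 with edgeR). This call was lost without shEHD1+Dox replicate 1, 2 or 3, at adjusted p = 0.0668, 0.0501 and 0.0946. The sulfurtransferase gene TST beside it had 0.34, KCTD17 0.06 and IFT27, of the ciliary transport machinery, 0.20, and none of these passed the test.

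NOL12, a nucleolar RNA-binding protein, fell by 0.56 on the log2 scale (SE 0.12, adjusted p = 0.0125 with edgeR), a call lost without shEHD1+Dox replicate 1 (0.0575) or 3 (0.0545). PDXP, a phosphatase, had -0.29, LGALS1, a galectin, -0.39 and Z83844.3 -1.45, with adjusted p = 0.0614, 0.379 and 0.139 in edgeR. Z83844.3 overlaps SH3BP1 and PDXP, so its reads cannot be assigned with certainty. GCAT, an enzyme of threonine breakdown that was named after its values were seen, rose by 0.54 on the log2 scale (adjusted p = 0.0489 with edgeR). Its call was lost when any one library other than shEHD1+Dox replicate 2 was left out, with adjusted p from 0.0637 to 0.165. MICALL1, a recycling-endosome protein that binds EHD1 and is coded nearby, had 0.05 (adjusted p = 0.774 with edgeR).

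**Figure D2:**
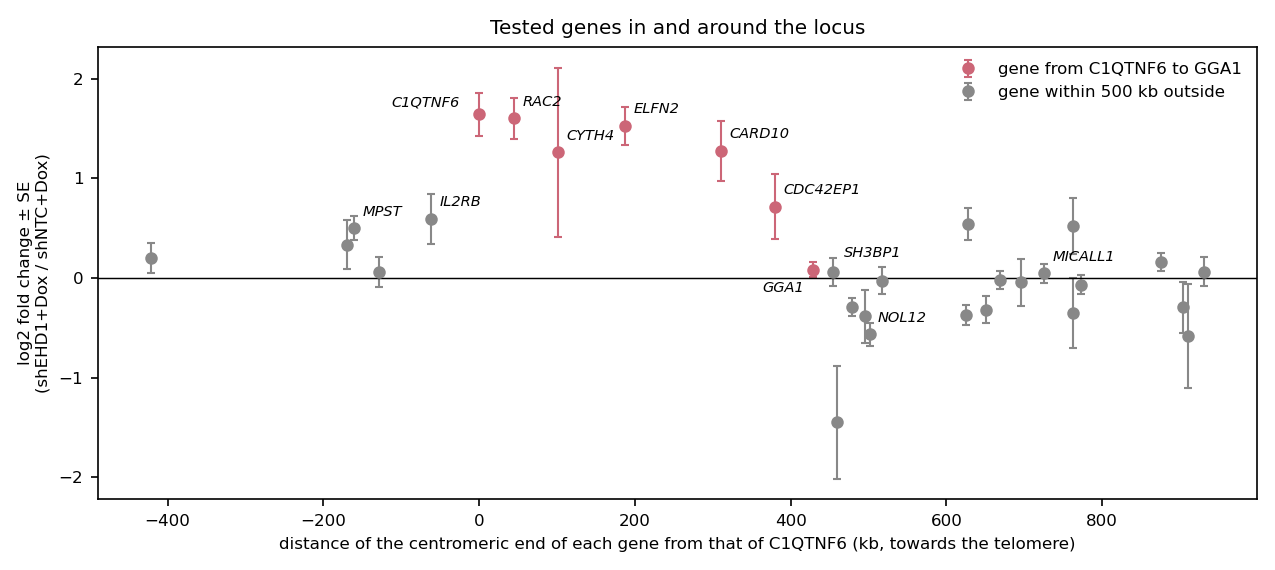
Log2 fold change with its SE (y axis) of each tested gene in the locus and within 500 kb of it, by the distance of its centromeric end from that of C1QTNF6 (x axis, kb). The red points of the locus run from 1.64 at C1QTNF6 to 0.09 at GGA1, while the gray points beyond GGA1 lie on both sides of 0.

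Outside the locus, 421 genes of chromosome 22 were tested, 27 higher (6.41%) and 41 lower (9.74%) at an adjusted p under 0.05, with a median log2 fold change of -0.05. Among 422 windows of 7 neighboring tested genes, added after the data were seen, the highest median of 1.28 was shared by 3 overlapping windows, which ran from C1QTNF6 to GGA1, from IL2RB to CDC42EP1 and from KCTD17 to CARD10, and the highest window that held none of its genes had 0.62. In 11 windows all 7 genes were positive, and 4 of these 11 held no gene of the locus. A window held as many genes as the locus has fitted members, and the stretch was chosen for its rise. Its high rank is therefore no test. The windows describe how the chosen stretch lies on its chromosome and share genes with their neighbors.

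**Figure D3:**
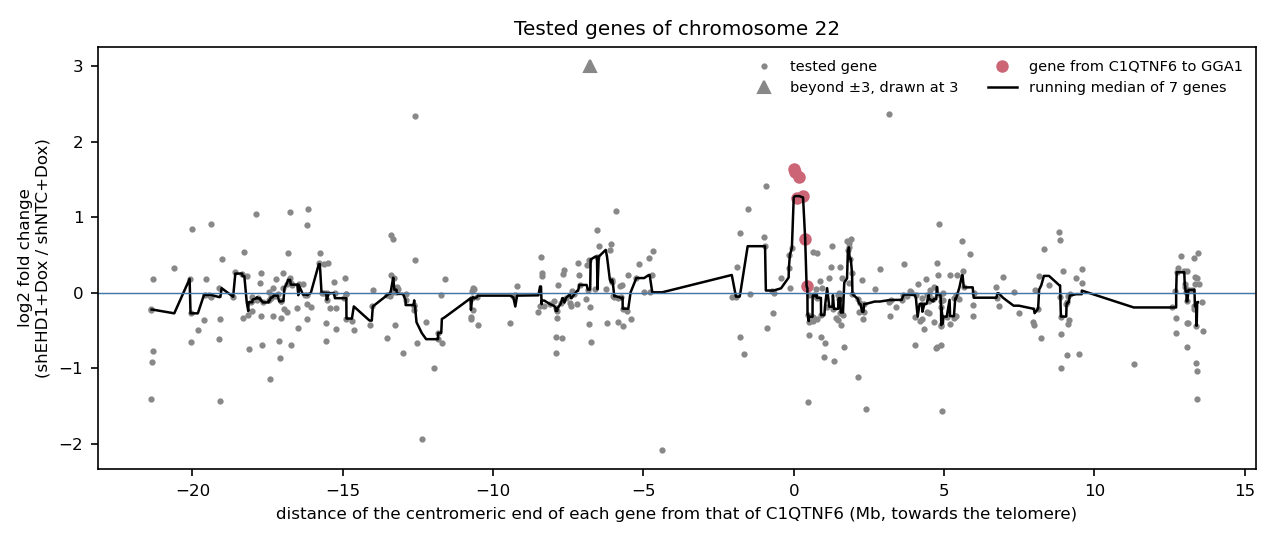
Log2 fold change (y axis) of the 428 tested genes of chromosome 22 by distance from C1QTNF6 (x axis, Mb), with the running median of 7 genes as a black line and a gene beyond 3 drawn as a triangle at 3. The line peaks at 1.28 over the genes of the locus and elsewhere stays at or below 0.62 in windows free of them.

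The 7 fitted genes have exonic GC contents from 56.1% (C1QTNF6) to 66.1% (CDC42EP1), which put them in the 3 highest deciles of tested genes. The median log2 fold changes of all genes in those deciles were -0.02, -0.02 and -0.02, a comparison added after the data were seen.

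Of 36 paralogs of the 10 genes, all outside the locus, 25 were tested, with a median log2 fold change of 0.10. At an adjusted p under 0.05, 1 rose (4%) and 2 fell (8%), beside 8.59% and 8.75% of all tested genes. Without shNTC+Dox replicate 3, 3 rose. RAC1, the ubiquitous relative of RAC2, was at 212 ± 11.6 and 221 ± 10.9 CPM, with a log2 fold change of 0.07 (adjusted p = 0.560 with edgeR). Per length, RAC1 had 25.6 RPKM in shNTC+Dox, beside 1.85 for RAC2, so it was the more abundant transcript. The highest relatives of the other genes were C1QTNF1 with a log2 fold change of -0.32, SSTR2 with -0.01, ELFN1 with 0.85, RFNG with 0.36, CDC42EP4 with 0.15 and LGALS1 with -0.39, and none of these passed the test. LGALS1 lies within 500 kb of the locus and was also counted among its neighbors. ELFN1 was counted at 0.93 ± 0.39 CPM in shNTC+Dox against 1.66 ± 0.38 CPM in shEHD1+Dox (SE 0.36, adjusted p = 0.136 with edgeR). CYTH2, with the highest CPM of the cytohesins over all 6 libraries, had 0.17, and CYTH1 -0.16 (adjusted p = 0.216 and 0.182 with edgeR).

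GGA2 and GGA3, the other trans-Golgi adaptors of the GGA family, fell. GGA2 had 4245, 4363 and 3911 counts in shNTC+Dox against 3294, 2879 and 3638 in shEHD1+Dox, which in CPM was 164 ± 9.23 against 117 ± 1.12. Its log2 fold change was -0.49 (SE 0.07, adjusted p = 0.00196 with edgeR), and that of GGA3 was -0.28 (SE 0.08, adjusted p = 0.0393 with edgeR). The call of GGA3 was lost without any one library other than shNTC+Dox replicate 3, with adjusted p from 0.0525 to 0.160. Whether GGA1 and its relatives differ in response was not tested.

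**Figure D4:**
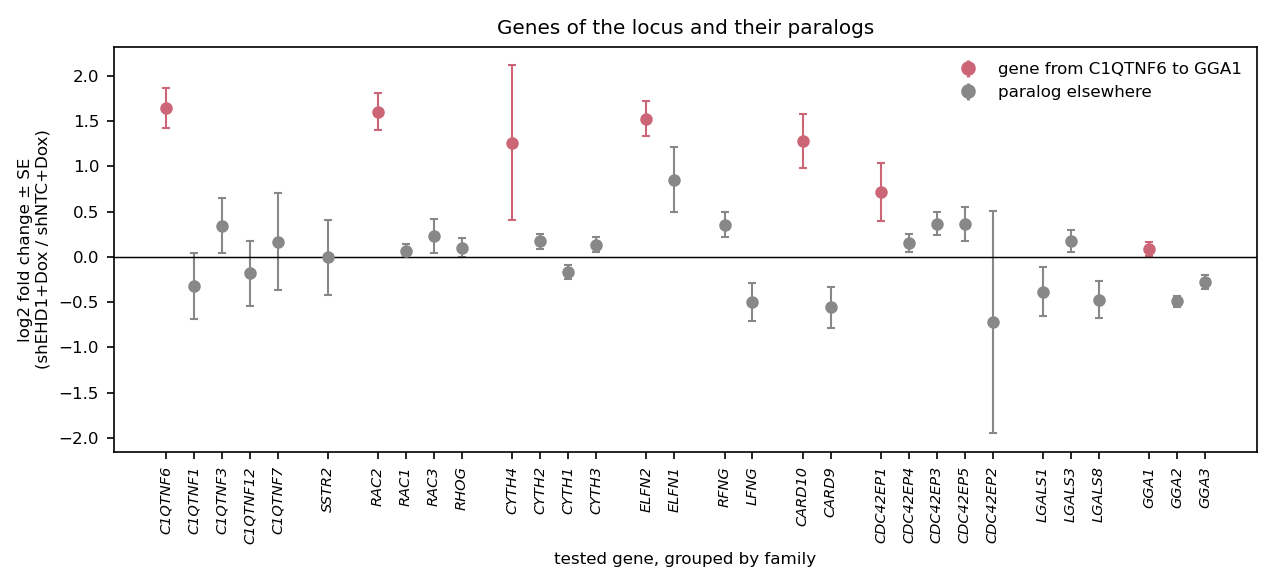
Log2 fold change with its SE (y axis) of the fitted genes of the locus (red) and 24 of their 25 fitted paralogs (gray), grouped by family. GGA2 at -0.49 and GGA3 at -0.28 fell, and the other paralogs drawn did not pass the test.

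The pathways in which the genes of the locus act were followed through 4 lists written from general knowledge. Earlier results of these data were known when the lists were chosen, so their shares are a description with no set test. Of 60 tested genes of RAC and CDC42 signaling, 12 rose (20%) and 2 fell (3.33%) at an adjusted p under 0.05, beside 8.59% and 8.75% of all tested genes, with a median log2 fold change of 0.07. The 12 became 3 to 6 when any one library other than shNTC+Dox replicate 3 was left out, and 13 without that library. The 2 falls became 1 without shNTC+Dox replicate 1 or shEHD1+Dox replicate 1 or 3, and 4 without shNTC+Dox replicate 3. Genes higher at this threshold likewise went from 8.59% of all tested genes to between 3.76% and 6.07%, and to 11.4% without shNTC+Dox replicate 3. RND3, an atypical small GTPase that opposes RHOA, had 84, 112 and 86 counts in shNTC+Dox against 13, 9 and 8 in shEHD1+Dox. It fell by 3.35 on the log2 scale (adjusted p = 2.69e-04 with edgeR), the largest change of the list and opposite in sign to RAC2. SRGAP1, a GTPase-activating protein, rose by 0.59 (adjusted p = 0.00264 with edgeR) and the endosomal GTPase RHOB by 0.79 (adjusted p = 0.0453), a call that was lost without any one library other than shNTC+Dox replicate 3, with adjusted p from 0.0510 to 0.121.

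ARF GTPases, their regulators and GGA-dependent sorting, the circuit of CYTH4 and GGA1, had 47 tested genes, of which 8 rose (17.0%, beside 8.59% of all tested genes) and 4 fell (8.51%, beside 8.75%), with a median of 0.08. The 8 became 2 to 4 without any one library other than shNTC+Dox replicate 3, and the 4 became 2 without shNTC+Dox replicate 1 or 2 or shEHD1+Dox replicate 1. AP1G1, the gamma subunit of the AP-1 clathrin adaptor that works with GGA proteins, had 3423, 3837 and 3245 counts in shNTC+Dox against 2197, 1904 and 2529 in shEHD1+Dox. It fell by 0.81 on the log2 scale (adjusted p = 2.67e-04 with edgeR). LRP3, a receptor of the LDL receptor family, fell by 1.07 (adjusted p = 9.16e-04), and PSD3, an exchange factor for ARF6, rose by 1.07 (adjusted p = 0.00208 with edgeR), with groups of 5.59 to 7.70 and 13.2 to 14.1 CPM.

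Notch signaling, on which MFNG acts, had 35 tested genes, of which 3 rose (8.57%, beside 8.59% of all tested genes) and 2 fell (5.71%, beside 8.75%), with a median of 0.11. The share that rose was thus that of all genes. JAG1, a Notch ligand, fell by 0.58 on the log2 scale (adjusted p = 0.00568 with edgeR). MAML2, a coactivator, rose by 1.26 (adjusted p = 0.0452) and the receptor NOTCH2 by 0.38 (adjusted p = 0.0274 with edgeR). Neither rise held when single shEHD1+Dox libraries were left out, with adjusted p from 0.0999 to 0.121 for MAML2 and from 0.0700 to 0.0868 for NOTCH2. MAML2 was also lost without shNTC+Dox replicate 2 (0.0845) and NOTCH2 without shNTC+Dox replicate 1 (0.0628). The 3 rises of the list became 1 without either of these controls and 0 without any one shEHD1+Dox library, and its 2 falls became 1 without shEHD1+Dox replicate 1 or 3.

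The route from CARD proteins through BCL10 and MALT1 to NF-kB had 30 tested genes, of which 5 rose (16.7%, beside 8.59% of all tested genes) and 2 fell (6.67%, beside 8.75%), with a median of -0.02. NFKB1, the precursor of the p50 subunit, rose by 0.81 on the log2 scale (adjusted p = 5.41e-04 with edgeR), from 642, 666 and 481 counts to 1207, 967 and 1272. BIRC3, an inhibitor of apoptosis and known NF-kB target, rose by 1.03 (adjusted p = 0.0346 with edgeR). This call was lost without shNTC+Dox replicate 2 (0.0558) and without shEHD1+Dox replicate 1, 2 or 3 (0.0843, 0.101 and 0.0978). The 5 rises became 2 or 3 without any one library other than shNTC+Dox replicate 3, and the 2 falls became 1 without shNTC+Dox replicate 1 or shEHD1+Dox replicate 1 or 3.

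Of 16 leukocyte markers, listed because RAC2 and CYTH4 are known from blood cells, CD68 alone passed the filter, and the summed level of the list was 3.45 to 6.75 CPM in shNTC+Dox against 2.71 to 5.02 CPM in shEHD1+Dox, so the ranges overlapped. Of the list, 7 markers had no count in any library, among them CD3E, CD2, MS4A1, ITGAX, TYROBP and IKZF1, and PTPRC, the pan-leukocyte antigen CD45, had 5, 11 and 9 counts in shNTC+Dox against 5, 0 and 0 in shEHD1+Dox. Of 16 Ewing sarcoma markers all were tested, of which 1 rose (6.25%, beside 8.59% of all tested genes) and 5 fell (31.2%, beside 8.75%). Their summed level was 6640 to 6773 CPM in shNTC+Dox against 6348 to 6468 CPM in shEHD1+Dox. The rise, of the surface antigen CD99, was lost without shNTC+Dox replicate 1 or 2 or shEHD1+Dox replicate 1 or 3 (edgeR adjusted p from 0.0555 to 0.117), and 2 markers rose without shNTC+Dox replicate 3. The 5 falls became 3 without shNTC+Dox replicate 1 or shEHD1+Dox replicate 1 or 3, and between 4 and 6 without any one of the others. Among the falls, BCL11B and STEAP1 (edgeR adjusted p = 0.0012 and 0.00443) held whichever library was left out. The fall of PAX7 (edgeR adjusted p = 0.0107) was lost without shEHD1+Dox replicate 1 (0.0521). Of 10 fibroblast markers 8 were tested, 1 rose (COL3A1, a fibrillar collagen, by 0.89 on the log2 scale) and 1 fell (DCN, a matrix proteoglycan, by 1.01), with edgeR adjusted p = 7.32e-04 and 0.00778. Each share was 12.5%, beside 8.59% of all tested genes that were higher and 8.75% that were lower. The summed fibroblast markers were at 275 to 372 CPM in shNTC+Dox against 477 to 537 CPM in shEHD1+Dox, and their part in the values of the locus was not tested.

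Among tested genes outside the locus with a mean of at least 1 CPM, those whose levels over the 6 libraries were most like the average profile of its fitted members were MERTK and PARD3 (Pearson r = 0.999 each), CFAP300 (0.998), ADAMTS4 and YIPF2 (0.997 each). They are coded on chromosomes 2, 10, 11, 1 and 19. This likeness is a description over 6 libraries in 2 groups. MERTK, a receptor tyrosine kinase, had 32.4 ± 3.72 CPM in shNTC+Dox against 51.7 ± 2.63 CPM in shEHD1+Dox, and YIPF2, a Golgi membrane protein, 16.3 ± 1.66 and 30.2 ± 2.72 CPM. Their log2 fold changes were 0.67 and 0.89, below those of C1QTNF6, RAC2 and ELFN2.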

How the data were processed

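RNA-seq libraries of TC71 cells were prepared by the authors with the TruSeq RNA kit v2, which does not keep strand, so where genes of opposite strands overlap their reads cannot be told apart. The paper names alignment to hg38 with hisat2 and quantification with StringTie, whereas the submitters' processing notes name STAR 2.7.3a and DESeq2, and how the counts were derived is not given in the sources used here. The deposited values are unnormalized read counts for each gene. All 6 columns were mapped to samples by their labels, and 0 were left unmapped.

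Counts were fitted in R 4.3.3 with edgeR 4.0.16 (TMM, robust glmQLFit, glmQLFTest) over the 16785 genes that reached 10 counts in 3 or more libraries, p-values were adjusted by Benjamini-Hochberg, and a call needed an adjusted p under 0.05 with a fold of 2 or more. The SE of a log2 fold change was its absolute value divided by the square root of the quasi-likelihood F statistic. The common biological coefficient of variation was 15.0%. RPKM used union exon lengths of GENCODE release 44 on GRCh38. The alternatives were the size factors of DESeq2 1.42.0 in edgeR, no filter, at least 10 counts in every library, the DESeq2 Wald test, the replicate number as a block and each library left out. The fit was tested on simulated data. Between libraries of a group, counts differed by more than sampling noise (chi-square per degree of freedom 5.56 to 27.1), so none was taken as a duplicate.

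The members, the lists and the borders of the stretch were chosen with earlier results of these data known. Named genes were all members, EHD1, the 5 fitted genes nearest to each end, MICALL1, the 3 list members with the largest change at an adjusted p under 0.05, the paralog with the highest CPM of each member, and the 5 genes with the highest Pearson r to the members' mean profile. CYTH1, GCAT and the single marker genes fall outside this rule and were chosen after their values were seen. Some genes that the rule or the counts cover are not reported here.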

Additional observations from a re-analysis of the deposited data

How the results depend on the processing

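Direction held for all 7 fitted genes of the locus under every alternative that could fit them (at least 10 counts in every library left out CYTH4), with log2 fold changes of 1.46 to 1.76 for C1QTNF6, 1.41 to 1.84 for RAC2, 1.40 to 1.64 for ELFN2, 1.02 to 1.62 for CARD10, 0.46 to 0.92 for CDC42EP1, 0.05 to 0.15 for GGA1 and 0.73 to 3.37 for CYTH4 when each library was left out. Members called stayed between 3 and 4, their median between 1.02 and 1.46, the summed level between 0.41 and 0.49, and EHD1 between -1.88 and -1.68. The members were chosen on this contrast, so the steadiness of their values is a description and no test of the rise. Over all genes 96 to 206 were called higher and 192 to 255 lower. Of genes within 500 kb, 0 to 1 rose and 0 to 3 fell, and of the pathway and paralog lists together 8 to 34 rose and 6 to 18 fell, beside 28 and 12 with all libraries.

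Same-numbered libraries did not deviate together (r from -0.06 to 0.07), so the replicate number was taken as a name. With the replicate block, the members' median was 1.52, 11 list genes rose, and 0 neighbors rose and 1 fell. Without a filter on low counts 1 neighbor rose. The mean of the members' log2 CPM differences was 1.22, in place of 0.44 for their summed level, which GGA1 dominates by construction. For the other changes the cause was not tested. DESeq2 left 1638 adjusted p undefined. Depth limits SSTR3, MFNG, LGALS2 and CYTH4, whose control counts were between 0 and 19.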
